A study of Homo sapiens with 6 samples.

Results

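Potassium channel genes were taken from the table of all genes by symbol, as every gene whose symbol starts with KCN, further letters and a number, without the antisense transcript KCNQ1OT1. This gave 102 of 23615 genes. Of these, 95 are subunits of potassium channels and 7 are non-coding or antisense transcripts named after a channel gene. H1 human embryonic stem cells (hESCs), an established cell line, were triggered to undergo ectoderm specification with 0.5 nM BMP-4 for 3 days and then with medium holding 10% fetal calf serum up to day 10. Cells received either 5 μM DAPT, which blocks the γ-secretase complex and with it the release of the Notch intracellular domain, or the ethanol vehicle throughout, and mRNA of 3 libraries per treatment was sequenced. All 6 libraries came from this 1 cell line and from day 10, and the labels do not say whether the 3 libraries of a treatment came from separate cultures. Cultures made by this protocol are mixtures of lineages.

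Potassium channels let potassium leave or enter cells and so set the resting membrane potential, end action potentials in nerve and muscle, and carry potassium across epithelia. Pore-forming subunits open in response to voltage (KCNA, KCNB, KCNC, KCND, KCNQ and KCNH genes), to intracellular calcium or sodium (KCNMA, KCNN and KCNT), or conduct at rest (the tandem-pore KCNK genes), and the KCNJ inward rectifiers pass current more easily into the cell than out of it. Modifier subunits (KCNF, KCNG, KCNS and KCNV) make no channel alone and join KCNB subunits, and accessory subunits (KCNAB, KCNE, KCNIP and KCNMB) bind pore subunits and change their gating or their transport to the membrane.

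The deposited table held 1 value per gene and treatment, in FPKM (fragments per kilobase of transcript, scaled to the number of mapped fragments), made by the authors over the 3 libraries of that treatment. The spread between libraries was not available, so no difference below could be set against replicate error, no test was made, and no SD or p-value is given. The depth of the libraries is unknown. Differences are given as a log2 ratio of DAPT over ethanol with 0.1 FPKM added to both values, which understates the difference of low genes, and folds are the plain quotient of the FPKM values. A gene was called expressed at a mean of at least 0.5 FPKM over the 2 treatments, and higher or lower with DAPT where the log2 ratio lay beyond 1 in size (2-fold). The sheet of all genes and a shorter sheet beside it hold the same pair of values in all 1417 rows of the shorter one, but swap the treatment names. The naming of the shorter sheet was used, and with the other naming every direction given here would be turned round. With the naming used, POU5F1 was lower with DAPT (47.3 FPKM, against 240 FPKM with ethanol) and TFAP2A higher (21.8 and 7.10 FPKM). These are the directions that the paper reports for both mRNAs from quantitative real-time PCR.

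The FPKM values of all genes summed to 422861 with DAPT and 443290 with ethanol, and the median log2 ratio of the 14388 expressed genes was -0.00132 (quartiles -0.29 and 0.27). Marker lists were used to describe the cultures, and the sum of a list can rest on a few genes. Of 8 surface ectoderm markers, chosen for the labelled tissue (ectoderm), 4 were higher with DAPT and none lower, and none was listed at 0. They summed to 1862 FPKM under DAPT and 1587 FPKM under ethanol. Most of this sum was KRT8 (961 and 876 FPKM) and KRT18 (846 and 687 FPKM), neither of which was called. All 6 endoderm markers (48.98 and 793 FPKM) and 4 of 6 pluripotency markers (231 and 621 FPKM) were lower with DAPT. Of the other lists, cardiac muscle (1072 and 911 FPKM) and smooth muscle (1353 and 1160 FPKM) had no called gene. ACTC1 alone held 999 and 814 FPKM of the cardiac sum, and only 3 of the 7 cardiac markers were expressed. MYH6, MYH7, NKX2-5 and RYR2 were below the expression threshold, none above 0.526 FPKM in either treatment. Among neuron markers 1 of 6 was higher (15.1 and 17.0 FPKM), and among glia and neural crest markers 1 of 4 (19.7 and 8.74 FPKM). For endothelium 1 of 4 markers was lower (19.2 and 40.4 FPKM), and the 3 trophoblast markers present in the table summed to 0.977 and 0.553 FPKM with no call. In such mixed cultures fewer cells of a type and less RNA per cell cannot be told apart, and the part of these shifts in the channel values was not tested.

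Potassium channel mRNA was low in both treatments, and 1 gene stood out. Of the 102 genes, 38 were expressed, all of them subunit genes. Their means were at least 5 FPKM for 7 genes, from 1 to 5 FPKM for 16 and from 0.5 to 1 FPKM for 15. KCNMA1 had the highest mean, 14.2 FPKM, and 4561 of all genes had a higher one. Summed over the 38 genes, the level was 99.3 FPKM under DAPT and 102 FPKM under ethanol. KCNMA1 alone held 24.7 and 3.66 FPKM of these sums, so the near equality of the totals rests on this 1 gene. Single genes differed in both directions, with 15 log2 ratios above 0 and 23 below. The order of the genes differed between the treatments. With DAPT the first places were held by KCNMA1 (24.7 FPKM), KCNG1 (8.01 FPKM) and KCNMB4 (5.94 FPKM), and with ethanol KCNG1 (10.02 FPKM) and KCNMB4 (9.23 FPKM) were again among the first places while KCNMA1 was not.

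**Figure D1:**
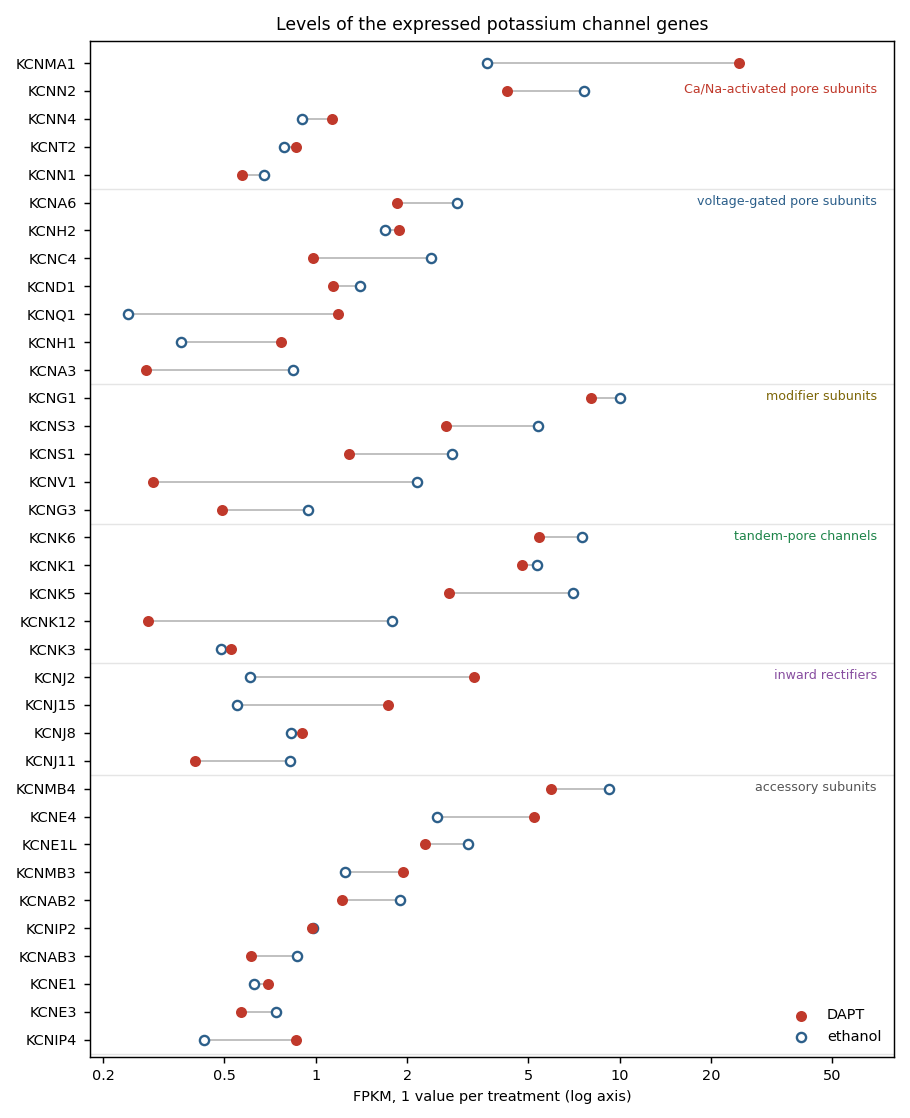
FPKM of 36 of the 38 expressed potassium channel genes, 1 value per treatment on a log axis, grouped by class of subunit and ordered by mean; filled red points are DAPT and open blue points ethanol, joined by a grey line. KCNMA1 lies at 24.7 FPKM under DAPT and 3.66 FPKM under ethanol, and all 5 expressed modifier subunits have the DAPT value on the left.

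Of the 38 expressed genes, 5 were higher with DAPT (KCNMA1, KCNJ2, KCNQ1, KCNJ15 and KCNE4), 6 were lower (KCNV1, KCNK12, KCNA3, KCNK5, KCNC4 and KCNS1) and 27 differed by less than the threshold. These are 13.2% and 15.8% of the expressed members, against 4.9% of all expressed genes that were higher and 5.47% that were lower, or 10.4% in either direction. In the range of means that the members covered, 5.82% of genes were higher, 6.66% lower and 12.5% either. Among all expressed genes, though not among the members, those with a mean under 2 FPKM passed the threshold more often than those above it. Of the 25 members with a mean under 2 FPKM, 3 were higher and 4 lower (28.0%), against 9.02% and 11.7% of all such genes (20.7% in either direction). Of the 13 members at 2 FPKM or more, 2 were higher and 2 lower (30.8%), against 4.49% and 4.56% of all genes from there up to the level of KCNMA1 (9.04% in either direction). The median log2 ratio of the expressed members was -0.30, with 15 above 0 and 23 below. Of the 11 genes past the threshold, 4 (KCNQ1, KCNV1, KCNK12 and KCNA3) were under 0.5 FPKM in 1 treatment. With 1 FPKM added in place of 0.1, the calls of KCNMA1, KCNJ2, KCNV1, KCNK12 and KCNK5 were kept and those of the other 6 genes were lost.

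**Figure D2:**
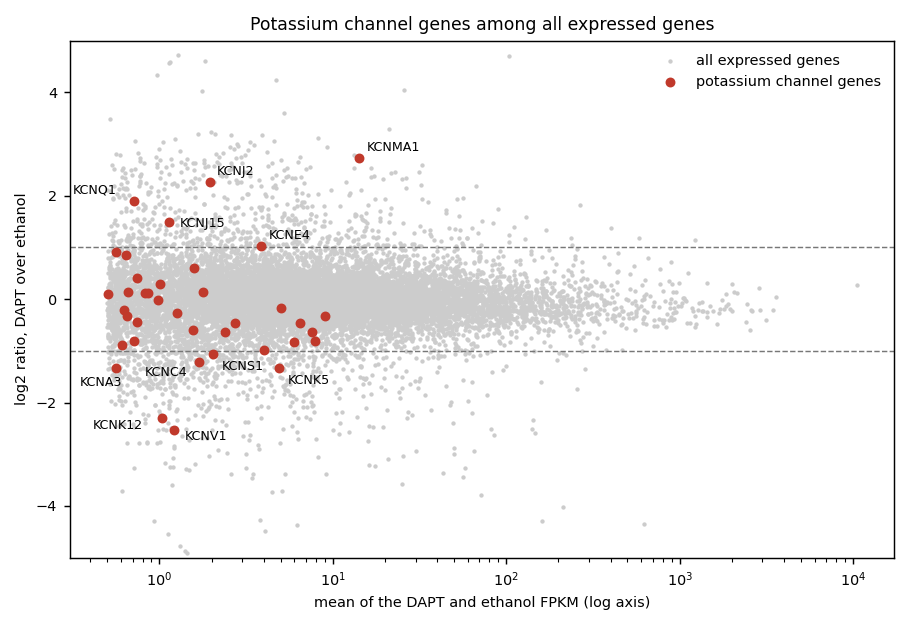
Log2 ratio of DAPT over ethanol against the mean FPKM of the treatments (log axis) for all 14388 expressed genes (grey) and the 38 expressed potassium channel genes (red), with dashed lines at a 2-fold difference and the 11 members beyond them named. The vertical axis ends at 5 in both directions and leaves out 101 genes, 100 of which are listed at 0 in 1 treatment; most members lie among the low and middle levels, and KCNMA1 is the highest of them.

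Promoter windows, from 250 bases before to 50 bases after the canonical start, were searched for 2 short motifs on both strands. One was GCCNNNGGC, the palindromic core of AP-2 factors, which mark surface ectoderm. The other was GTGGGAA, the core of RBPJ, the DNA-binding partner of the Notch intracellular domain. None of the 37 promoters of expressed members held both motifs, so no AP-2 match overlapped an RBPJ match. In KCNS3, 2 AP-2 matches overlapped each other, at positions -162 and -155 from the start. The AP-2 letters were present in 3 of the 5 promoters of genes higher with DAPT, in 2 of the 6 of genes lower with DAPT and in 9 of 26 of the expressed genes that passed in neither direction, against 29.6% of 19894 protein-coding promoters of the same length. The RBPJ letters were in 1 of 37 promoters of expressed members, that of KCNE4, against 5.72% of all. The windows below show the match of each such gene on GRCh37, the same assembly as hg19, in the direction of the gene, with the motif in capitals. For KCNMA1 and KCNS1, which have 2 matches each, the one farther upstream is given.
KCNMA1 (chr10:79397712-79397736, minus strand): cgcgggcgGCCCGCGGCgccccctg
KCNJ2 (chr17:68165601-68165625, plus strand): cggcagcgGCCGGGGGCggggccag
KCNQ1 (chr11:2466148-2466172, plus strand): tgggaccgGCCCTCGGCcactgccc
KCNK12 (chr2:47798120-47798144, minus strand): aacaccccGCCCCGGGCgccagtga
KCNS1 (chr20:43729771-43729795, minus strand): aaaccgccGCCTCCGGCcgccagcg
KCNE4, RBPJ letters on the reverse strand (chr2:223916723-223916745, plus strand): aggagcagTTCCCACttcccagt
The AP-2 letters thus stand before genes of both directions, 64 bases upstream of the start in KCNJ2 and 19 bases upstream in KCNS1. The annotated starts of KCNK12, KCNS1 and KCNJ2 lie outside the loci that the deposited table gives for them, farthest for KCNK12. A match of letters is a description of the sequence and not a site.

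KCNMA1, which encodes the pore of the large-conductance BK channel opened by calcium and voltage, had the highest log2 ratio of the 38 expressed members. It had 24.7 FPKM in DAPT-treated cells, against 3.66 FPKM in ethanol controls, a 6.76-fold higher level (log2 ratio 2.72). It ranked number 1 among the members with DAPT and number 9 with ethanol. The gene covers a long stretch of chromosome 10 (78629359 to 79397577 of hg19, minus strand), and its canonical transcript has 28 exons. The small-conductance channel gene KCNN2, whose product slows firing after an action potential, went the other way without passing the threshold, with 4.25 FPKM in DAPT-treated cells and 7.64 FPKM in ethanol controls (log2 ratio -0.83). KCNN4, the intermediate-conductance channel of blood cells and epithelia, had 1.13 FPKM under DAPT and 0.899 FPKM under ethanol. The sodium-activated KCNT2 had 0.862 FPKM under DAPT and 0.787 FPKM under ethanol, while its relative KCNT1 and the sperm channel KCNU1 were near 0 in both (0.0142 and 0.00436 FPKM for KCNT1, 0.00788 and 0.00608 FPKM for KCNU1).

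The accessory subunits of the BK channel did not share the difference of its pore. KCNMB4, a β subunit known from neurons that alters calcium sensitivity, had 5.94 FPKM under DAPT and 9.23 FPKM under ethanol (log2 ratio -0.63). KCNMB3, a β subunit that can inactivate the channel, had 1.93 FPKM under DAPT and 1.25 FPKM under ethanol (log2 ratio 0.60). KCNMB1, the smooth muscle β subunit, had 0.269 FPKM under DAPT and 0.432 FPKM under ethanol, and KCNMB2 had 0.0616 and 0.0527 FPKM. The summed level of the 4 β subunits was 8.20 FPKM under DAPT and 10.96 FPKM under ethanol, against 24.7 and 3.66 FPKM of the pore gene. Of the genes of γ subunits, which let BK channels open at lower voltage, LRRC26 was listed at 0 in both treatments, and LRRC38 (0.0713 and 0.0782 FPKM), LRRC52 (0 and 0.0117 FPKM) and LRRC55 (0.239 and 0.0700 FPKM) were not expressed by the threshold used here.

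Voltage-gated pore subunits differed in both directions, with 1 gene higher and 2 lower among the 9 expressed of 30. KCNQ1, the channel of the slow cardiac delayed rectifier current and of many epithelia, had 1.18 FPKM in DAPT-treated cells and 0.242 FPKM in ethanol controls, a 4.89-fold higher level (log2 ratio 1.91). It lies on chromosome 11 (2466221 to 2870340, plus strand), and its locus holds the excluded antisense transcript KCNQ1OT1 (0.0314 and 0.0203 FPKM). Libraries were stranded, but the sources used here do not say whether counting used strand. Its relative KCNQ3, a subunit of the neuronal M-channel that damps firing, was at 0.0407 FPKM under DAPT and 0.00941 FPKM under ethanol. KCNQ5, another relative, was at 0.145 and 0.0232 FPKM.

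The voltage-gated genes lower with DAPT were KCNA3 and KCNC4. KCNA3, best known as the delayed rectifier of T lymphocytes, had 0.277 FPKM under DAPT and 0.844 FPKM under ethanol, 3.05-fold lower (log2 ratio -1.32). KCNC4, a fast-activating channel of the family that lets neurons and muscle repolarize quickly, had 0.981 FPKM under DAPT and 2.40 FPKM under ethanol, 2.44-fold lower (log2 ratio -1.21). Other voltage-gated genes did not pass the threshold. KCNA6 had 1.85 FPKM under DAPT and 2.91 FPKM under ethanol (log2 ratio -0.63). KCNH2, whose channel ends the cardiac action potential, had 1.87 FPKM under DAPT and 1.68 FPKM under ethanol (log2 ratio 0.15). KCNH1 had 0.767 FPKM under DAPT and 0.359 FPKM under ethanol, a fold of 2.13 that stayed under the threshold once 0.1 FPKM was added (log2 ratio 0.92). In the KCND family of transient currents, KCND1 had 1.14 FPKM under DAPT and 1.39 FPKM under ethanol, and KCND2 was below the expression threshold at 0.220 and 0.686 FPKM.

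The modifier subunits had lower values with DAPT in all 5 expressed genes, 2 of which passed the threshold. KCNV1 (chromosome 8, 110979233 to 110986959, minus strand), a brain subunit that suppresses KCNB currents, had 0.291 FPKM in DAPT-treated cells and 2.15 FPKM in ethanol controls. It was 7.38-fold lower (log2 ratio -2.52), the lowest log2 ratio among the 38 expressed members. KCNS1 (chromosome 20, 43720950 to 43729753, minus strand) had 1.29 FPKM under DAPT and 2.80 FPKM under ethanol (log2 ratio -1.06). KCNS3, a close relative, had 2.67 FPKM under DAPT and 5.37 FPKM under ethanol (log2 ratio -0.98), just inside 2-fold with 0.1 FPKM added and 2.01-fold lower without it. KCNG3 had 0.492 FPKM under DAPT and 0.941 FPKM under ethanol (log2 ratio -0.81), and KCNG1, the most abundant modifier, had 8.01 and 10.02 FPKM (log2 ratio -0.32). Below the expression threshold, KCNF1 had 0.0628 FPKM under DAPT and 0.580 FPKM under ethanol, and KCNV2 had 0.0173 and 0.153 FPKM. Together the 10 modifier genes summed to 12.9 FPKM under DAPT and 22.1 FPKM under ethanol. KCNB2, a pore subunit that modifiers are known to join, was at 0.0812 FPKM under DAPT and 0.0310 FPKM under ethanol, below the expression threshold. The partner gene AMIGO1, which encodes an adhesion protein bound to KCNB channels, had 0.522 FPKM under DAPT and 0.735 FPKM under ethanol.

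Tandem-pore channels, which carry background potassium current, were lower or similar with DAPT, with 2 of 5 expressed genes lower and none higher. KCNK5 (chromosome 6, 39156747 to 39197251, minus strand), a channel of epithelia opened by alkaline pH, had 2.75 FPKM in DAPT-treated cells and 7.03 FPKM in ethanol controls, 2.56-fold lower (log2 ratio -1.32). KCNK12 (chromosome 2, 47747915 to 47797470, minus strand), a halothane-inhibited type of channel, had 0.281 FPKM under DAPT and 1.78 FPKM under ethanol, 6.34-fold lower (log2 ratio -2.30). Its close relative KCNK13 was below the expression threshold, at 0.162 FPKM under DAPT and 0.506 FPKM under ethanol. The more abundant KCNK6 and KCNK1, both weakly inward-rectifying channels, differed little. KCNK6 had 5.41 FPKM under DAPT and 7.48 FPKM under ethanol (log2 ratio -0.46), and KCNK1 had 4.76 and 5.34 FPKM (log2 ratio -0.16). KCNK3, an acid-inhibited channel, had 0.525 FPKM under DAPT and 0.486 FPKM under ethanol. The remaining 9 KCNK genes were not expressed by the threshold.

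Inward rectifiers held 2 of the 5 genes that were higher with DAPT. KCNJ2 (chromosome 17, 68165676 to 68176183, plus strand), the classical inward rectifier that stabilizes the resting potential of muscle and is mutated in a syndrome with skeletal and facial anomalies, had 3.31 FPKM in DAPT-treated cells and 0.608 FPKM in ethanol controls. It was 5.44-fold higher (log2 ratio 2.27). KCNJ15 (chromosome 21, 39601837 to 39673746, plus strand), an inward rectifier of kidney and other epithelia, had 1.73 FPKM under DAPT and 0.549 FPKM under ethanol, 3.15-fold higher. The ATP-sensitive pores differed less. KCNJ8, the vascular form, had 0.902 FPKM under DAPT and 0.826 FPKM under ethanol (log2 ratio 0.11), and KCNJ11, the pancreatic and cardiac form, had 0.401 and 0.822 FPKM (log2 ratio -0.88). The sulfonylurea receptors with which these pores assemble were at low levels, ABCC8 at 0.0523 FPKM under DAPT and 0.0244 FPKM under ethanol and ABCC9 at 0.0420 and 0.0663 FPKM. Of the 16 KCNJ rows, 12 were not expressed by the threshold. These include the paralogs KCNJ12 and KCNJ18, which share 1 row (0.250 and 0.219 FPKM) and whose reads cannot be told apart, and a separate row for KCNJ18 listed at 0.

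Accessory subunits had 1 higher gene and none lower among 10 expressed of 16. KCNE4 (chromosome 2, 223916648 to 223920357, plus strand), a single-span subunit that inhibits KCNQ1 and some KCNA channels, had 5.23 FPKM in DAPT-treated cells and 2.50 FPKM in ethanol controls, 2.09-fold higher (log2 ratio 1.03). KCNQ1, one of the channels that KCNE4 is known to inhibit, was higher with DAPT as well. The other KCNE subunits differed less. KCNE1, which slows KCNQ1 in heart and inner ear, had 0.695 FPKM under DAPT and 0.626 FPKM under ethanol (log2 ratio 0.13), and KCNE3, which holds KCNQ1 open in gut epithelium, had 0.565 and 0.736 FPKM (log2 ratio -0.33). KCNE1L, the older symbol of KCNE5, had 2.28 FPKM under DAPT and 3.17 FPKM under ethanol (log2 ratio -0.46). Of the calcium-binding KCNIP subunits of KCND channels, KCNIP2 was at similar levels (0.971 FPKM under DAPT and 0.980 FPKM under ethanol). KCNIP4 had 0.857 and 0.430 FPKM, a fold of 1.996 that stayed just under the threshold (log2 ratio 0.85). The other partners of KCND channels, the dipeptidyl peptidase-like DPP10 (1.82 and 1.19 FPKM) and DPP6 (0.911 and 0.963 FPKM), were expressed and not past the threshold. The KCNAB subunits of KCNA channels had lower values, with KCNAB2 at 1.22 FPKM under DAPT and 1.89 FPKM under ethanol and KCNAB3 at 0.611 and 0.869 FPKM, and neither passed the threshold.

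Of the 12 partner genes without a KCN symbol and digit, 5 were expressed and none passed the threshold, with a median log2 ratio of -0.41, against -0.00132 for all expressed genes. Most abundant were CNTNAP2, which clusters KCNA channels beside the nodes of myelinated axons (18.1 FPKM under DAPT and 24.1 FPKM under ethanol), and KCTD12, a subunit of GABA-B receptors that shapes their coupling to KCNJ channels (13.1 and 21.2 FPKM).

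**Figure D3:**
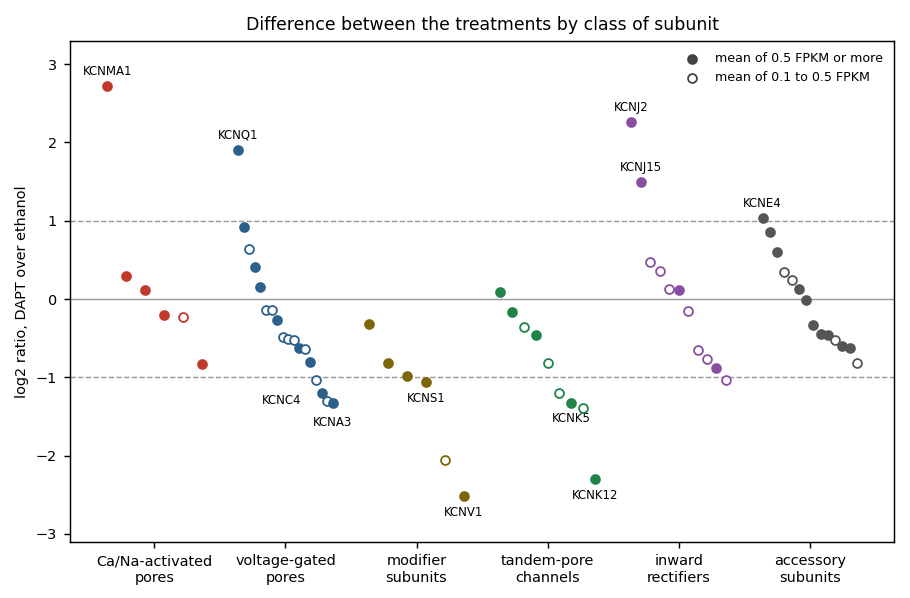
Log2 ratio of DAPT over ethanol for each subunit gene with a mean of at least 0.1 FPKM, by class of subunit; filled points are expressed genes (mean of 0.5 FPKM or more), open points lie between 0.1 and 0.5 FPKM, and dashed lines mark a 2-fold difference. The 5 genes above the upper line are pore genes of 3 classes and KCNE4, while all 5 filled modifier subunits lie below 0, down to -2.52 for KCNV1.

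FPKM values are scaled by transcript length and can be added over genes. The 69 pore-forming genes summed to 71.7 FPKM under DAPT and 66.7 FPKM under ethanol. KCNMA1 made up 34.5% of this sum with DAPT and 5.48% with ethanol. Without KCNMA1 the sum of the other 68 genes was 46.9 FPKM under DAPT and 63.1 FPKM under ethanol. The share of tandem-pore genes was 20.1% with DAPT and 35.3% with ethanol, and that of voltage-gated genes 23.9% and 36.0%. Inward rectifiers made up 11.8% with DAPT and 8.0% with ethanol. Shares of 1 sum are not independent of each other, so a large KCNMA1 share lowers all others.

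**Figure D4:**
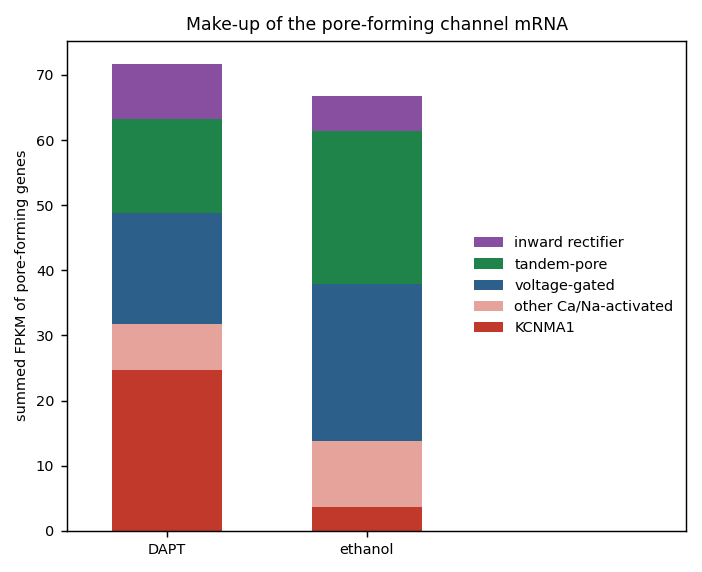
Summed FPKM of the 69 pore-forming potassium channel genes with DAPT (left bar) and ethanol (right bar), stacked by class, with KCNMA1 apart from the other calcium- or sodium-activated genes. The bars reach 71.7 and 66.7 FPKM, and KCNMA1 takes 24.7 and 3.66 FPKM of them.

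Several potassium channel genes are neighbours in the genome, but neighbours were rarely expressed together. Within 500 kb of another member lay 41 of the 102 genes, in 17 groups. Only 1 group, that of KCNC4 and KCNA3, held 2 or more expressed members, so the directions of expressed neighbours could be compared in that group alone. On chromosome 17, KCNJ16 ends 33.9 kb before KCNJ2 starts, and the antisense transcript KCNJ2-AS1 begins 132 bases from the start of KCNJ2 on the opposite strand. KCNJ2-AS1 had 0.589 FPKM under DAPT and 0.229 FPKM under ethanol (log2 ratio 1.06), on the same side as KCNJ2 (3.31 and 0.608 FPKM). KCNJ16, an inward rectifier of kidney and brain, had 0.142 FPKM under DAPT and 0.398 FPKM under ethanol (log2 ratio -1.04), on the other side. KCNJ2-AS1 and KCNJ16 were both below the expression threshold. On chromosome 1, KCNC4 (110753336 to 110776674, plus strand) and KCNA3 (111214310 to 111217655, minus strand) were both lower with DAPT, and the genes between them were at 0.0255 and 0.0510 FPKM (KCNA2) or listed at 0 in both treatments (KCNA10). On chromosome 6, KCNK5 had 2.75 FPKM under DAPT and 7.03 FPKM under ethanol, its neighbour KCNK17 had 0.181 and 0.395 FPKM (log2 ratio -0.81), and KCNK16 was listed at 0.

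**Figure D5:**
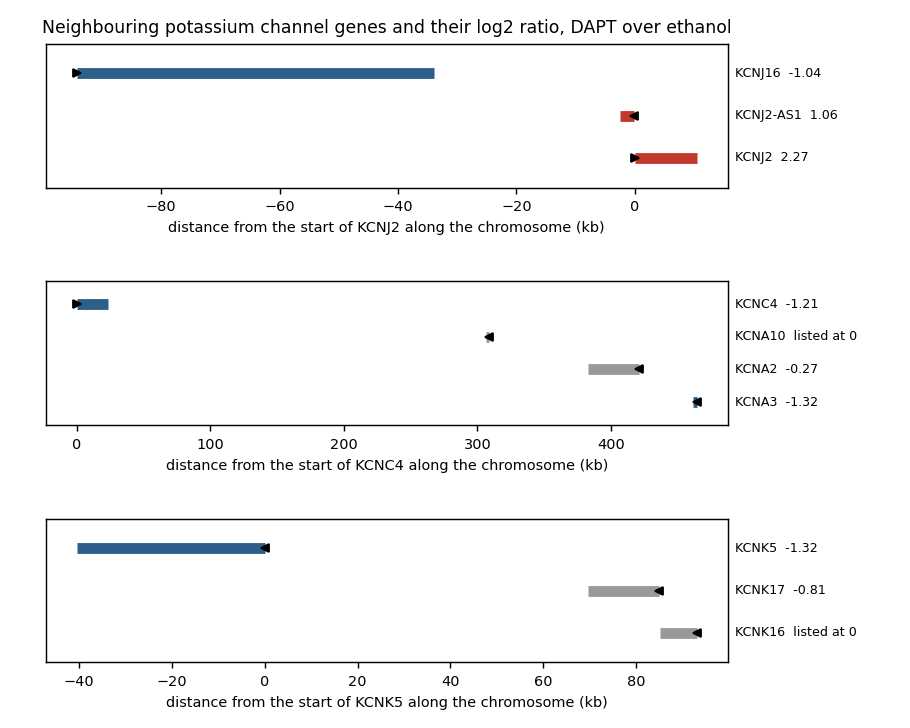
3 groups of neighbouring potassium channel genes drawn to scale against the distance in kb from the start of KCNJ2, KCNC4 and KCNK5, with black arrowheads at the start of each gene pointing in its direction; red is a log2 ratio above 1, blue below -1 and grey between. KCNJ2 and KCNJ2-AS1 (2.27 and 1.06) lie beside KCNJ16 (-1.04), while KCNC4 and KCNA3 (-1.21 and -1.32) share a direction.

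The canonical transcripts of the 5 genes higher with DAPT had a median length of 5391 bases (2915 to 8407) and a median GC content of 46.1% (39.9 to 63.6%). Those of the 6 lower genes had a median length of 4793 bases (2476 to 13564) and a median GC content of 55.5% (41.4 to 64.4%). The ranges of both overlap. The 26 expressed members that were not called had a median length of 3554 bases and a median GC content of 54.9%. Among all genes with an annotated transcript, the median GC content was likewise 47.2% for the 558 higher and 54.3% for the 624 lower genes. The median lengths of these were 4264 bases for the higher and 2431 bases for the lower genes. The part of transcript length and GC content in the values of the members was not tested.

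The other 64 members were below the expression threshold, with a median of 0.0590 FPKM. Of these, 27 had a mean from 0.1 to 0.5 FPKM and 37 less. Listed at 0 in both treatments were 8 rows, 4 of them non-coding transcripts, and 2 more were listed at 0 in 1 treatment (KCNK18 with ethanol and KCNK9 with DAPT). Among the 64, a log2 ratio beyond 1 was found for 1 higher row, KCNJ2-AS1, and 7 lower ones, which were KCNF1, KCNK7, KCND2, KCNK13, KCNV2, KCND3 and KCNJ16. At such levels a ratio rests on few fragments. The rows of 20 members share a locus in part with another row, among them 6 expressed genes and, of the called genes, only KCNQ1.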

How the data were processed

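Poly-A RNA of H1 hESCs was made into stranded libraries, 3 per treatment. Per the submitters' processing notes and the methods, reads were aligned to hg19 (TopHat2 2.0.6) and abundance came from Cufflinks 2.0.2. The deposited FPKM values were computed by the authors, 1 per gene and treatment over its libraries. The sources used here name neither the annotation, the scaling between libraries nor any use of strand in counting. The deposited table also holds the authors' fold changes, test statistics, p-values and q-values, which were not used. Log2 ratios were computed in numpy 2.4.6 and pandas 2.3.3 with a pseudocount of 0.1 FPKM, over genes with a mean of at least 0.5 FPKM. The calling step was tested on simulated data, with planted differences well beyond the threshold and the same noise at all levels. That check cannot say how reliable calls are near the threshold or at low FPKM. The depth per library is unknown, which leaves the precision of each value unknown.

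Named genes were all members past 2-fold, the 5 of highest mean, the 2 of highest mean in each symbol family, and of the lists of related genes those past 2-fold and the 2 of highest mean. Some genes that this rule names are not reported here, and further members were named after their values were seen. Members and lists were chosen with earlier results of these data known. Loci are from the deposited table, and start positions were raised by 1, since the start plus 1 equals the annotated start for 4693 genes and the start itself for 569. Strand, exons, length and promoter windows came from GENCODE transcripts mapped to GRCh37, matched by symbol for 98 of 102 members. Alternatives were other pseudocounts, filters, fold thresholds and scalings.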

Additional observations from a re-analysis of the deposited data

How the results depend on the processing

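With 1 FPKM added, 2 of 38 members were higher and 3 lower (median log2 ratio -0.16), against 2.94% and 2.93% of all expressed genes. With no filter on low values 6 of 102 were higher and 13 lower (median -0.00623), against 3.93% and 4.66% of all genes. With a mean of at least 0.2 FPKM these were 6 and 11 of 59 (median -0.45), against 5.23% and 6.18%. With a mean of at least 1 FPKM they were 4 and 5 of 23 (median -0.46), against 4.35% and 4.84%. More than 1.5-fold was reached by 8 higher and 14 lower members of 38, against 10.6% and 11.6% of all expressed genes. More than 3-fold was reached by 3 and 2, against 2.38% and 2.37%. These settings change how many genes are tested or how low values are weighted, so the counts moved by construction. The counts stayed within 1.5 times those reported, and the median within 0.1, with no pseudocount (6 and 8), the 3 other scalings (KCNH1 joined the higher genes at equal column sums), and without overlapping or failed rows. Across these settings 4.5% to 5.53% of all expressed genes were higher and 5.18% to 5.63% lower. No called gene changed sign with another pseudocount or scaling, but this was fixed in advance. An equal amount added to both values cannot change a sign, and the scalings moved the median of all expressed genes to 0.07 at most. Of the 11 called genes, 5 kept their call in all 5 settings of pseudocount and scaling. Of the related genes named past 2-fold, HCN2, CACNA1C and CACNA2D2 lost their call with 1 FPKM added, and ATP1B1 kept it but has a row that overlaps another. No paired analysis was possible because the table gives no value per library, and for the same reason no library could be left out in turn. The unknown depth and spread limit every comparison, most of all below 1 FPKM.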

Other observations

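Other genes of ion balance and excitability were counted by the same rule. Of all expressed genes, 4.9% were higher with DAPT and 5.47% lower, or 10.4% in either direction. Among those with a mean under 2 FPKM, 20.7% passed in either direction. Of 9 expressed genes of the sodium-potassium pump, which builds the potassium gradient that the channels use, 1 was higher with DAPT and 1 lower. The β subunit gene ATP1B1 had 82.5 FPKM under DAPT and 36.1 FPKM under ethanol (log2 ratio 1.19). ATP1B3, another β subunit gene, had 64.4 FPKM under DAPT and 83.5 FPKM under ethanol. None of the 4 expressed cation-chloride cotransporters passed the threshold, the most abundant being SLC12A4 (23.3 FPKM under DAPT and 25.3 FPKM under ethanol) and SLC12A7 (5.34 and 7.82 FPKM).

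Of 3 expressed HCN channels, the pacemaker relatives of potassium channels, HCN2 was lower (0.424 FPKM under DAPT and 1.24 FPKM under ethanol, log2 ratio -1.35), while HCN4 (1.00 and 1.06 FPKM) and HCN3 (1.08 and 0.806 FPKM) did not pass. The 3 expressed voltage-gated sodium channel genes did not pass either, among them SCN4B (0.656 FPKM under DAPT and 0.705 FPKM under ethanol). Of 8 expressed voltage-gated calcium channel genes, 2 were higher, the cardiac and smooth muscle pore gene CACNA1C (1.15 FPKM under DAPT and 0.419 FPKM under ethanol, log2 ratio 1.27) and CACNA2D2 (1.02 and 0.387 FPKM, log2 ratio 1.20). The most abundant of that list were CACNB3 (17.6 and 12.1 FPKM) and CACNA2D1 (1.91 and 2.59 FPKM).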
